A study of Mus musculus with 40 samples.

Results

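The comparison described here is the depletion of microglia in retina whose endothelial cells lack the TGFβ receptor gene *Tgfbr2*. Its members are the retina libraries labelled CrePos, 5 from mice on PLX5622 food and 5 from mice on control food, which makes 10 of the 20 retina libraries and of the 40 libraries sequenced in all. CrePos mice (Tgfbr2ΔEC) carried floxed *Tgfbr2* alleles (Tgfbr2 fl/fl) and 1 copy of Cdh5-CreERT2, a Cre recombinase that is driven by the endothelial *Cdh5* promoter and becomes active with tamoxifen. CreNeg mice (controls) were Tgfbr2 fl/fl littermates without the recombinase, and their 10 retinas on the same 2 diets serve for comparison. All mice, of both sexes and on a C57BL/6J background, received tamoxifen eye drops (20 mg/ml) on 5 consecutive days at an age of 6 to 7 weeks. PLX5622 (PLX), an inhibitor of the CSF1 receptor, was mixed into the food, and this diet began together with tamoxifen and was never withdrawn. The eyes were treated with 6 laser burns each and collected 3 days later, so no retina in the comparison was without tamoxifen or laser injury. The groups are called Tgfbr2ΔEC – PLX (mice 6 to 10) and Tgfbr2ΔEC + PLX (mice 16 to 20).

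Microglia are the resident mononuclear phagocytes (MP) of the retina. They arise from yolk sac progenitors and depend on signalling through the CSF1 receptor, whose ligands are CSF1 and IL34, so inhibitors of this receptor remove them from neural tissue. In the undisturbed retina microglia express a homeostatic set of genes, among them *Tmem119*, *P2ry12* and *Cx3cr1*, and in the nervous system they are the main source of C1q, which starts the classical complement pathway. Macrophages of vessels and borders, monocytes and other leukocytes share many MP genes, and laser injury can bring such cells into the retina. Because retina tissue of mixed cell types was sequenced, fewer cells of a type and less RNA per cell cannot be told apart in these values. The deleted endothelial cells are a minor part of the tissue. How much of each retina was taken is not in the labels.

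The libraries had approximately 22241566 to 27719621 reads in Tgfbr2ΔEC – PLX and 21616377 to 27219555 in Tgfbr2ΔEC + PLX (two-sided exact permutation test of the depth, 5 mice against 5, p = 0.563). Values are the authors' normalized counts, in which 1 read was worth between 0.742 and 1.124. A level of 3 reads, 2.53 to 3.30 normalized counts in these 10 libraries, was taken as the floor below which a gene was not measurable; the floor covers counting error only. The rod transducin gene *Gnat1* was at 239287 to 302126 normalized counts without and 248161 to 308937 with PLX, so the libraries carried a defining transcript of the labelled tissue. Y-linked transcripts were present in 2 of the 5 libraries without and in 1 of the 5 with PLX. Mouse 6 stood apart in the group without PLX and mouse 17 in the group with PLX by their leukocyte transcripts. Mouse 6 had the highest of the 5 values for 78 of the 119 genes described below, and mouse 17 for 48 of the 101 of these genes that were above 0 in any mouse with PLX. Counts are therefore also given without these mice.

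With PLX a small set of genes was lower by a large factor, and 1 gene was higher. Of 23243 tested genes, 120 (0.516%) were called, of which 119 (0.512%) were lower and 1 (0.0043%) was higher in Tgfbr2ΔEC + PLX than in Tgfbr2ΔEC – PLX at an adjusted p at or under 0.05 (limma with Benjamini-Hochberg adjustment over all tested genes). At an unadjusted p under 0.05, 597 genes were lower and 322 higher. The log2 difference of the 119 genes, on the scale log2(normalized count + 1), ranged from -7.70 to -0.88 with a median of -3.40, whereas the median of all tested genes was -0.002. Of the 119 genes, 114 were protein-coding, and 38 belonged to one of the gene lists described below. In 57 of them all 5 mice with PLX were at or under the floor. The values of the groups did not overlap for 111 of the 119 genes, while all 5 values with PLX were below all 5 without for 213 (0.916%) of all tested genes and above them for 75 (0.323%). Without mice 6 and 17, 87 of the 120 called genes were still called, 0 changed sign, and 91 genes were lower in all. The last gene inside the threshold was *Gm44154* (adjusted p = 0.0499, its call lost in 24 of 30 alternatives) and the first outside was the interleukin-7 receptor gene *Il7r*, with a log2 difference of -2.47 (adjusted p = 0.0502).

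**Figure D1:**
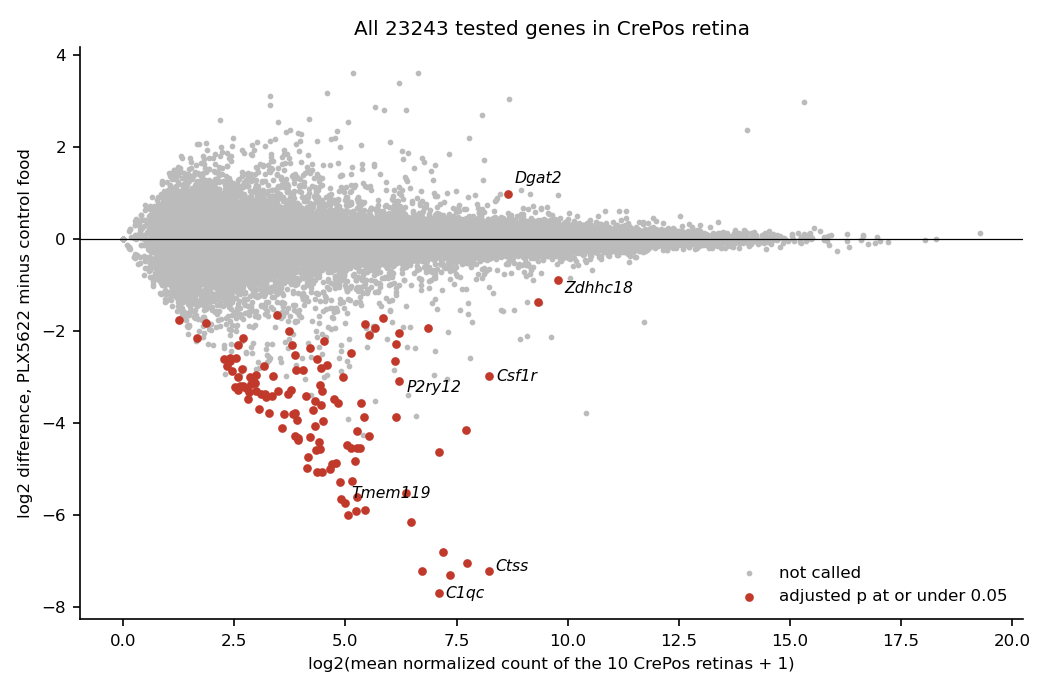
Log2 difference between Tgfbr2ΔEC + PLX and Tgfbr2ΔEC – PLX retina (y axis) against the log2 mean normalized count of the 10 retinas (x axis), 1 point per tested gene, with called genes in red. The 119 called genes below 0 reach down to -7.70, and *Dgat2* is the only called gene above 0.

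*Tmem119*, which encodes a membrane protein used to mark microglia, was nearly absent with PLX. Without PLX it was at 53.4, 73.4, 67.2, 64.3 and 47.7 normalized counts in mice 6 to 10, and with PLX at 0, 0, 1.02, 0 and 0 in mice 16 to 20. All 5 mice with PLX were thus under the floor and all 5 without were far above it. The mean of 61.2 ± 10.5 (SD, n = 5) without PLX was at least 20.2-fold higher than the floor of 3.03 normalized counts (mean of the 5 libraries with PLX). The mean with PLX lay under this floor (log2 difference -5.74, standard error 0.31, adjusted p = 5.45e-10).

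*P2ry12*, the ADP receptor that guides microglial processes to sites of injury, fell less completely. It was at 154, 119, 112, 139 and 131 normalized counts without PLX and at 25.6, 16.7, 6.13, 14.6 and 15.8 with PLX. Every mouse with PLX kept a value above the floor, and the highest of them was below the lowest mouse without PLX. The mean fell 8.30-fold to 12.05% (log2 difference -3.08, standard error 0.28, adjusted p = 7.48e-07). *P2ry12* lies on the minus strand of chromosome 3 (59123682 to 59170429, GRCm39), inside the span of *Med12l* on the plus strand (58913242 to 59226103). *Med12l*, a subunit gene of the Mediator kinase module, was at 736 ± 171 (SD, n = 5) without and 704 ± 57.5 (SD, n = 5) with PLX, and whether reads of one gene were counted for the other was not tested. The neighbouring receptor gene *P2ry13*, inside the same span, was at 25.9 to 50.6 normalized counts without PLX and at or under 1.06 with PLX.

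The 3 chains of C1q are encoded side by side on the minus strand of chromosome 4 (136606009 to 136626161, GRCm39). *C1qc*, the third marker of microglia used here, was at 338, 393, 277, 184 and 173 normalized counts without PLX and at 0, 0, 0, 2.05 and 0 with PLX, at least 90.1-fold lower (log2 difference -7.70, adjusted p = 5.45e-10). *C1qa* was at 191 to 471 without PLX and at 0 to 7.58 with it, at least 107-fold lower. For *C1qb* the ranges were 158 to 414 and 0 to 7.64, at least 94.6-fold lower. The values of mouse 17, 7.58 and 7.64, were the only ones of *C1qa* and *C1qb* with PLX that clearly exceeded the floor. The exact permutation test of 5 mice against 5 gave p = 0.00794, the smallest p this design allows, for *Tmem119*, *P2ry12* and *C1qc* alike (two-sided, 0.00953 after Benjamini-Hochberg adjustment over the 6 genes tested in this way).

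**Figure D2:**
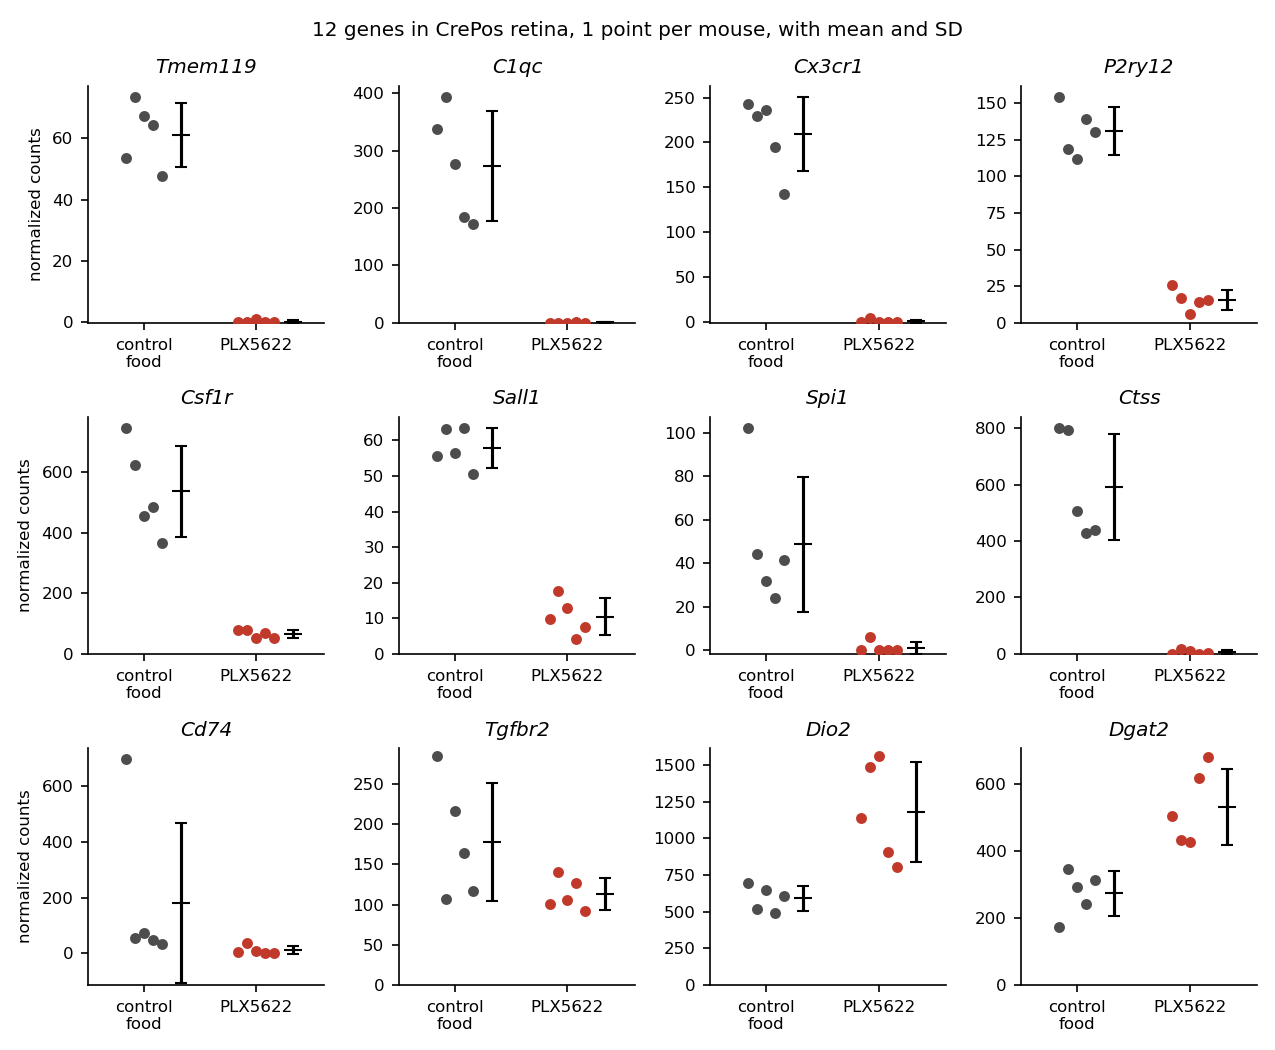
Normalized counts (y axes, linear) of 12 genes in Tgfbr2ΔEC retina, 1 point per mouse in grey for control food and red for PLX5622, with the mean and SD of each group beside the points. *Tmem119*, *C1qc*, *Cx3cr1*, *Spi1* and *Ctss* lie at or near 0 with PLX, *P2ry12*, *Csf1r* and *Sall1* keep a measurable level, and mouse 6 at 697 sets the *Cd74* mean without PLX.

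The 250 bases upstream of the annotated start of *Tmem119* and of the 3 C1q genes are shown because *Tmem119* and *C1qc* are markers used here and the C1q chains moved together. They were read from the GRCm39 genome on the strand of the gene, 5′ to 3′, with transcript starts from GENCODE M39. The letter strings GAGGAA and GAGGAAGT, which contains the former, were searched on both strands as forms of the binding site of PU.1, the myeloid factor encoded by *Spi1*. Matches are in capitals, those on the opposite strand as their reverse complement.
Tmem119, chr5:113938578-113938827, minus strand: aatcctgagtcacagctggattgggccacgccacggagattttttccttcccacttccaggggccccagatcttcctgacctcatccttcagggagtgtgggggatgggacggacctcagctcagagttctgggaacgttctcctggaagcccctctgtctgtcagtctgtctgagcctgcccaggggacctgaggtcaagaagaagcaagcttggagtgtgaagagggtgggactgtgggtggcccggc
C1qa, chr4:136626162-136626411, minus strand: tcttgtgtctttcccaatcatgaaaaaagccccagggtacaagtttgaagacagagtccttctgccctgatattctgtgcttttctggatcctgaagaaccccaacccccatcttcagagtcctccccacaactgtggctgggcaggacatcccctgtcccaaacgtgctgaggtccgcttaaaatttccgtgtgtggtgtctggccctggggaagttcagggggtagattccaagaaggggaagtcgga
C1qb, chr4:136613512-136613761, minus strand: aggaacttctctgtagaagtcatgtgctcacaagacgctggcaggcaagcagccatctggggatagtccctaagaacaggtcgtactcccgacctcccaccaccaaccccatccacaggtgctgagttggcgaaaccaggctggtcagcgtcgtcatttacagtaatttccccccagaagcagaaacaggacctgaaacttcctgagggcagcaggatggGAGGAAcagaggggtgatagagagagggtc
C1qc, chr4:136620377-136620626, minus strand: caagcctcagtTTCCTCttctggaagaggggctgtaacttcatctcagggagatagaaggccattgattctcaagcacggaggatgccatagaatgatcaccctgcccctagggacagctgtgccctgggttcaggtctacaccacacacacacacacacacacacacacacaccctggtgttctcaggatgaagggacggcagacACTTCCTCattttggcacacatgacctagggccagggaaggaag
*C1qc* held 2 matched sites and *C1qb* 1, and no match was found in these windows of *C1qa* and *Tmem119*. GAGGAA was present in 43 of the 114 windows of the lowered protein-coding genes (37.7%) and in 3847 of 16572 windows of all tested protein-coding genes (23.2%). GAGGAAGT was present in 8 (7.0%) and in 344 (2.1%) of them, respectively. These counts describe letters in the windows and were not tested.

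Of the 11 tested genes of the homeostatic microglia list, 9 were lower, with a median log2 difference of -4.87 (-3.05 with a pseudocount of 5). The remaining list member, *Fcrls*, was not matched by symbol and is not in this count. The annotation holds a gene *Fcrl2*, a name that may stand for it although no table used here joins them, and this gene was counted among those in no list. It was at 21.6, 19.3, 56.3, 42.7 and 26.9 normalized counts without PLX and at 0 in all 5 mice with PLX (log2 difference -4.99, adjusted p = 1.25e-05). *Cx3cr1*, the receptor for neuronal fractalkine, was at 242, 229, 236, 195 and 143 normalized counts without PLX. With PLX it was at 0 in 4 mice and at 4.19 in mouse 17, at least 68.9-fold lower (log2 difference -7.21, adjusted p = 1.13e-09). *Siglech*, a lectin gene that separates microglia from other macrophages, was at 45.1 to 85.5 without PLX and at 0 in all 5 mice with PLX. *Selplg*, which encodes the ligand of P-selectin, was at 91.4 to 444 without PLX, mouse 7 being the highest, and at 0 to 4.96 with it. *Gpr34*, a lysophospholipid receptor gene, was at 34.5 to 68.9 and at 0 to 3.24. These genes shared the pattern of *Tmem119*, with no overlap of the groups and values with PLX close to 0.

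Within the same list some genes kept more of their RNA. *Sall1*, the transcription factor that maintains microglial identity, fell to 18.1%, from 50.4 to 63.6 without PLX to 4.22 to 17.8 with PLX (log2 difference -2.48, adjusted p = 0.000744). The extracellular matrix gene *Olfml3* was not called (adjusted p = 0.235, and 0.045 without mouse 6), with mouse 6 at 30.04 and the other mice without PLX at 142 to 221, and with mouse 18 at 93.6 and the other mice with PLX at 13.8 to 20.2. The fructose transporter gene *Slc2a5* was also not called, at 2.00 to 28.2 without and 1.96 to 11.98 with PLX.

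*Csf1r*, the receptor gene that PLX5622 targets, was at 747, 625, 456, 486 and 368 normalized counts without PLX and at 78.1, 78.5, 51.6, 69.0 and 51.9 with PLX. The groups did not overlap, and 12.3% of the mean remained (log2 difference -2.99, standard error 0.36, adjusted p = 3.41e-05; exact permutation test, p = 0.00794). It was the only called gene among the 10 of its list of CSF1 receptor ligands and related receptors, whose median was -0.41. Its ligand gene *Csf1* was at 91.8 to 266 without and 70.6 to 232 with PLX (log2 difference -0.50, standard error 0.29). *Il34*, the ligand made by retinal neurons, was at 90.5 to 203 and at 69.5 to 97.1 (log2 difference -0.65, standard error 0.26, adjusted p = 1). *Kit*, *Pdgfra* and *Pdgfrb*, kinase receptors related to CSF1R, had log2 differences of 0.14, 0.09 and -0.19, none of them called.

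Of 12 myeloid transcription factors, 3 were lower, namely *Ikzf1*, *Sall1* and *Spi1*, and the median was -0.77. *Spi1*, which encodes the factor PU.1 that all MP require, was at 102, 44.2, 31.96, 24.1 and 41.4 normalized counts without PLX and at 0 in all mice with PLX except mouse 17, at 6.30 (log2 difference -4.88, adjusted p = 0.00192). *Ikzf1*, the gene of the lymphoid and myeloid factor Ikaros, was at 11.4 to 61.1 without PLX and at 0 to 2.14 with it. *Mef2c*, which neurons also express, was at 3125 ± 874 (SD, n = 5) and 3264 ± 469 (SD, n = 5) and was not called (log2 difference 0.10).

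Of 20 listed phagocytic receptors and signalling genes, with which MP sense and engulf material, 14 were lower, with a median of -2.93, and 8 of the 20 were lower without mice 6 and 17. *Tyrobp*, the adaptor of TREM2 and related receptors, was at 116, 130.2, 74.3, 37.5 and 60.9 normalized counts without PLX and at 0 in 4 mice and 2.60 in mouse 17 with PLX, at least 27.7-fold lower. *Trem2*, the lipid-sensing receptor, was at 41.9 to 104 without PLX and at 0 to 5.18 with it. All 5 tested genes of the Fc receptors for immunoglobulin G and their common chain (*Fcgr1*, *Fcgr2b*, *Fcgr3*, *Fcgr4*, *Fcer1g*) were lower, by -5.28 to -2.73 on the log2 scale. The call of *Fcgr3* held in all 31 alternatives, whereas that of *Fcer1g* was lost in 12 of 31, that of *Fcgr1* in 8 of 31 and that of *Fcgr4* in 13 of 30, each time also without mouse 6 alone. The call of *Fcgr2b* was lost without mice 6 and 17 together (adjusted p = 0.0638). *Itgam*, the CD11b chain of complement receptor 3, fell to 2.02%, from 80.7 to 283 to between 0 and 8.94. *Laptm5*, a lysosomal gene of leukocytes, fell to 5.22%, with mouse 17 at 45.6 and the other mice with PLX at 3.67 to 7.75. The receptor tyrosine kinase genes *Mertk* and *Axl*, which Müller cells, pigment epithelium or vessels also express, had log2 differences of -0.19 and -0.38 and were not called.

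Of 18 tested complement genes, the 3 C1q chains and the anaphylatoxin receptor genes *C3ar1* and *C5ar1* were lower, and the median over the list was -0.32. *C3ar1* was at 111, 42.2, 37.9, 30.04 and 18.97 normalized counts without PLX and at 0 in 4 mice and 2.38 in mouse 18 with PLX. *C5ar1* was at 74.1, 22.8, 38.7, 2.88 and 1.99 without PLX, mice 9 and 10 being under the floor, and at 0 in all 5 mice with PLX (adjusted p = 0.00808, but 0.0757 without mice 6 and 17, 0.0592 in the 10 CrePos retinas alone and 0.0926 with a pseudocount of 5). No other listed component, inhibitor or regulator was called, and the regulator with the highest level, *Cd59a*, was at 1009.7 ± 196 (SD, n = 5) without and 1021 ± 124 (SD, n = 5) with PLX.

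Of 17 genes of the disease-associated phagocyte list, 4 were lower and the median was -0.20. *Ctss*, the cysteine protease cathepsin S of MP, fell 101-fold, from 799, 792, 505, 428 and 438 normalized counts without PLX to 0, 15.3, 10.8, 0 and 3.33 with PLX (log2 difference -7.22, adjusted p = 7.87e-07). *Clec7a*, the β-glucan receptor dectin-1, ranged from 8.46 to 66.6 without PLX and did not exceed 0.99 with PLX. *Itgax* (CD11c) and the chemokine gene *Ccl6* were the other two, with log2 differences of -3.33 and -3.96. The list also holds genes with a high level in other retinal cells. *Apoe*, the lipid carrier made by Müller cells, was at 10481 ± 3004 (SD, n = 5) and 8879 ± 771 (SD, n = 5), and the cathepsin gene *Ctsb* had a log2 difference of -0.19 (standard error 0.11); neither was called.

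**Figure D3:**
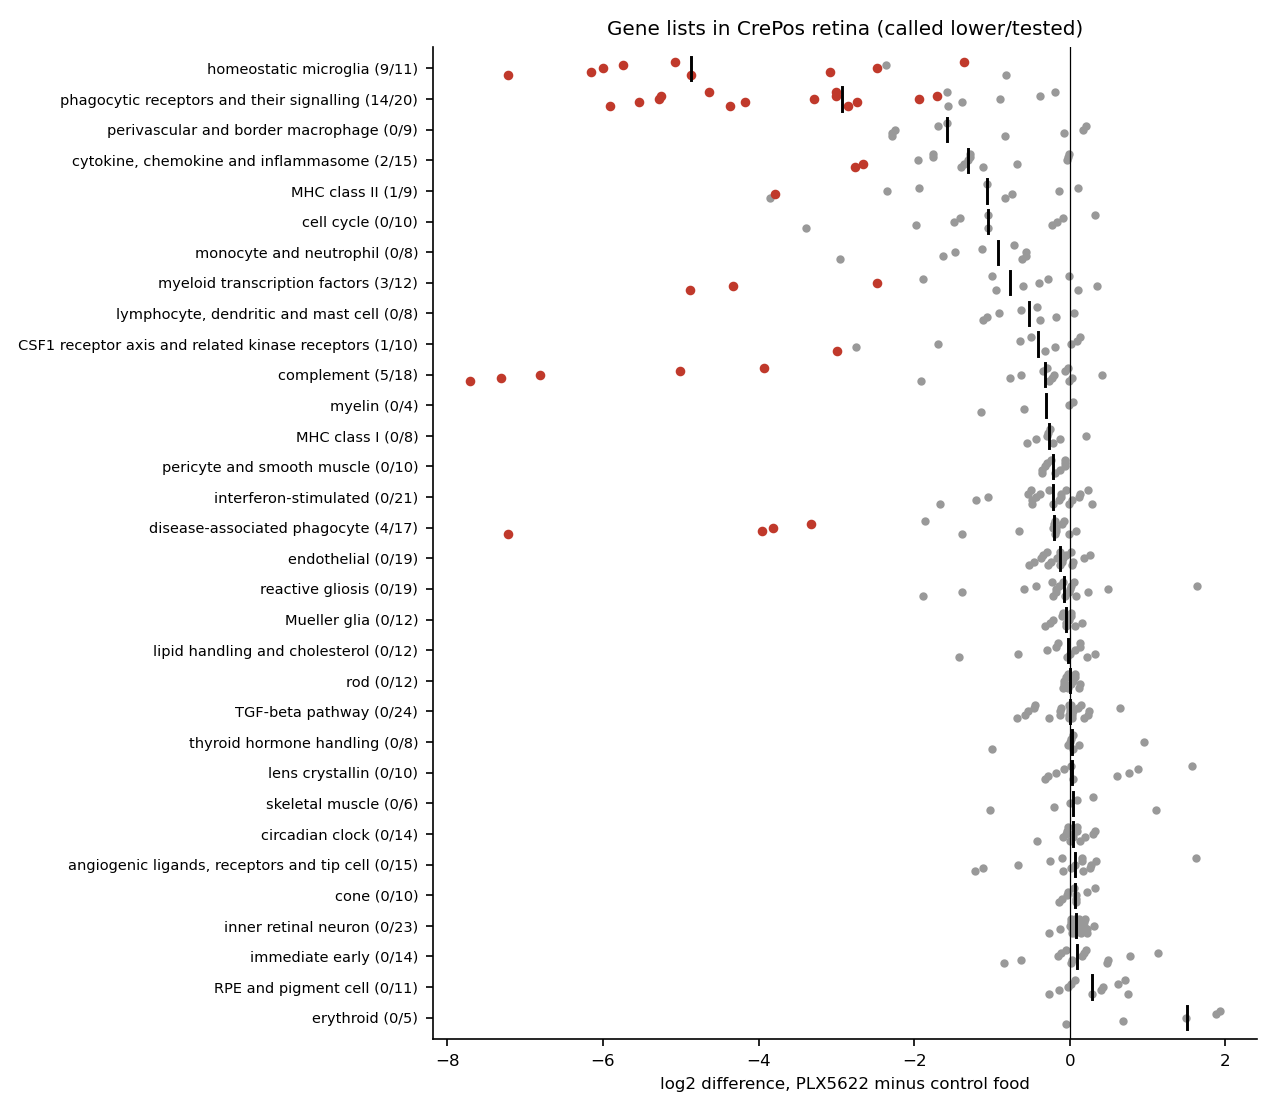
Log2 difference between Tgfbr2ΔEC + PLX and Tgfbr2ΔEC – PLX retina (x axis) of the tested members of 32 gene lists, 1 point per gene, called genes in red, with the list median as a black bar and the number called lower of those tested beside each name. Called genes occur in 8 lists, and the medians of the neuron, glia and vessel lists lie near 0.

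Of the 119 lowered genes, 81 were in none of the lists. Those with the lowest p were *Adgre1*, *Ly86*, *Mpeg1*, *Cd33* and *Ighm*. *Adgre1*, the gene of the macrophage antigen F4/80, was at 125, 59.6, 48.0, 26.2 and 30.3 normalized counts without PLX and at 0 in all 5 mice with PLX. *Mpeg1*, which encodes the pore-forming perforin-2 of MP, fell 93.5-fold, from 246 to 710 without PLX to at most 18.5 (mouse 17) with PLX. Mouse 17 was far above the other mice with PLX for *Mpeg1*, so the size of this fold depends largely on it. *Ly86*, the partner of the receptor CD180, was at 35.1 to 96.3 and at most 1.095, and *Cd33*, a sialic acid receptor, was at 41.2 to 102 and at most 5.18. *Ighm*, the immunoglobulin μ heavy chain gene, was at 25.4 to 56.1 without PLX and at or under 1.95 with PLX (log2 difference -4.41, adjusted p = 1.25e-06).

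Several families that were looked at after the values had been seen held more than 1 lowered gene. Of 10 tested Toll-like receptor genes, which recognise microbial and self molecules, 5 were lower (*Tlr1*, *Tlr2*, *Tlr7*, *Tlr9* and *Tlr13*). *Tlr7*, a sensor of single-stranded RNA, was at 42.1, 9.62, 38.5, 69.7 and 9.68 normalized counts without PLX and at 0 in all 5 mice with PLX. *Tlr3*, at 115 to 197 without and 85.6 to 124 with PLX, and *Tlr4* were not called. The calls of *Tlr7* and *Tlr13* held in all 31 alternatives, and those of *Tlr1* and *Tlr2* were lost in 10 of 30 and 19 of 31, without mouse 6 among others. Of 4 tested genes of the NAIP family of inflammasome sensors, *Naip2*, *Naip5* and *Naip6* were lower and *Naip1* was not called. Of 9 genes of prostanoid synthesis, 3 were lower: *Ptgs1* (cyclooxygenase-1), *Hpgds* and *Tbxas1*, the synthases of prostaglandin D2 and thromboxane A2, with log2 differences of -3.53, -3.56 and -3.41. *Ptgs2* and *Ptgds*, the inducible cyclooxygenase and the lipocalin-type prostaglandin D synthase genes, had log2 differences of -0.12 and 0.29 and were not called. Of subunits of the phagocyte NADPH oxidase, *Cybb* and *Ncf1* were lower and *Cyba* and *Ncf4* were not called. Without mouse 6 *Cybb*, *Ncf1* and *Naip2* were not called either (adjusted p = 0.0956, 0.117 and 0.138), and without mouse 19 *Ncf4* was called (0.0185).

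Genes of antigen presentation and of infiltrating leukocytes varied widely among the mice without PLX. Of 9 genes of the MHC class II list, 1 was lower, the costimulatory gene *Cd86* (11.3 to 31.8 normalized counts without and at most 1.71 with PLX). *Cd74*, the invariant chain, was at 697, 54.1, 71.5, 46.5 and 31.96 without PLX and at 5.78, 35.4, 9.39, 0 and 1.65 with PLX. Mouse 6 was far above the other mice of its group and mouse 17 was above mouse 10, and *Cd74* was not called (log2 difference -3.86, adjusted p = 0.0892, 0.0212 without mouse 17 and 0.0498 with the rod score as covariate). *H2-Aa*, an MHC class II chain, was at 339 in mouse 6, at 2.95 to 28.4 in the other mice without PLX and at 0.34 to 13.4 with PLX. None of the 8 tested genes of the monocyte and neutrophil list was called, and their median was -0.92. *Ccr2*, the chemokine receptor of inflammatory monocytes, was at 187 in mouse 6 and at 2.18 to 13.7 in mice 7 to 10, and with PLX at 14.3 in mouse 17 and at 0 in the other mice. The summed value of this list was 13.8 to 245 without PLX and 4.87 to 25.2 with PLX. How much of the loss of the shared MP genes came from such cells was not tested.

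Of 9 tested markers of perivascular and border macrophages, 0 were called, with a median of -1.58, and some of them were low and variable. *Mrc1*, the mannose receptor, was at 39.7, 1.406, 14.6, 29.1 and 0 normalized counts without PLX and at 0, 2.80, 3.48, 0 and 0 with PLX (log2 difference -2.28, adjusted p = 0.724, and 0.0472 without mouse 10). *F13a1*, coagulation factor XIII chain A, was at 26.5, 1.65, 17.5, 32.1 and 0 and at 0, 0, 0, 4.98 and 1.68. Mice 7 and 10 were thus under the floor for both genes without PLX. *Lyve1*, which lymphatic and some other endothelial cells also express, was at 269 to 349 and at 231 to 332. *Stab1* was at 38.1 to 111 without PLX and at 343 in mouse 17 and 33.9 to 87.4 in the other mice with PLX.

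Of 15 tested cytokine, chemokine and inflammasome genes, 2 were lower, and 0 without mice 6 and 17. *Il1a*, interleukin-1α, was at 8.28, 8.65, 7.57, 8.27 and 5.32 normalized counts without PLX and at 2.15 in mouse 18 and 0 in the other mice with PLX (adjusted p = 0.00524, but 0.0566 without mice 6 and 17 and 0.0914 with a pseudocount of 5). *Ccl12*, a monocyte chemoattractant, was at 11.6, 21.4, 6.23, 3.79 and 0 and at 0 in all 5 mice with PLX (adjusted p = 0.036); its call was lost in 16 of 30 alternatives, among them the removal of any single one of mice 6 to 9 or 16 to 20 (adjusted p from 0.0617 to 0.156) and of CreNeg mouse 2, 13 or 15 (0.0506 to 0.0522). All 15 genes had a log2 difference below 0 and the median of the list was -1.31, but -0.63 with a pseudocount of 5 and -0.36 for those with a mean of 10 or more. *Il6*, for interleukin-6, was at 0 in all 20 retinas. Of 21 interferon-stimulated and 8 MHC class I genes, 0 were called, with medians of -0.21 and -0.27. *B2m*, the light chain of MHC class I, was at 1046 ± 430 (SD, n = 5) without and 688 ± 229 (SD, n = 5) with PLX.

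*Tgfbr2*, the gene deleted in endothelial cells of both groups, was at 285, 107, 216, 164 and 117 normalized counts without PLX and at 101, 140.0, 106, 127 and 91.5 with PLX. The ranges overlapped, and a difference was not called (log2 difference -0.57, standard error 0.27; exact permutation test, p = 0.0952). In CreNeg retinas the means were 213 ± 55.4 (SD, n = 5) and 123 ± 35.7 (SD, n = 5), a log2 difference of -0.82 (adjusted p = 0.373). MP and endothelial cells both express this receptor, and their shares in retina tissue cannot be told apart. None of the 24 genes of the TGFβ pathway list was called, and their median was 0.00. *Tgfb2*, the main TGFβ ligand of the retina, and the signal transducer *Smad4* had log2 differences of 0.01 and 0.04.

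Vessel genes did not pass the test either. Of 19 endothelial, 15 angiogenic and 10 pericyte and smooth muscle genes, 0 were called, with medians of -0.12, 0.07 and -0.22. Estimates were below 0 for 14, 6 and 10 of them, respectively, against 11727 of all 23243 tested genes. Those of the pericyte and smooth muscle genes ranged from -0.36 to -0.06. The VEGF receptor genes *Kdr* and *Flt1* had log2 differences of -0.09 (standard error 0.15) and -0.16 (standard error 0.13), and the tight junction gene *Cldn5* had one of -0.37 (standard error 0.27). *Vegfa*, the main angiogenic ligand, was at 3553, 3445, 3635, 3588 and 3252 normalized counts without PLX and at 5018, 3614, 4850.5, 3546 and 4296 with PLX; it was not called (log2 difference 0.27, standard error 0.11). The pericyte gene *Rgs5* had a log2 difference of -0.06. *Fga*, the fibrinogen α chain, was at 0 in all 20 retinas.

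Neural and glial genes were at similar levels on both diets. None of the 12 rod, 10 cone, 23 inner retinal neuron and 12 Müller glia genes was called, and the medians were 0.00, 0.07, 0.08 and -0.05. *Glul*, the glutamine synthetase of Müller cells, was at 39339 to 49859 without and 38711 to 50198 with PLX. Reactive gliosis genes were not called (0 of 19, median -0.08). *Gfap*, the intermediate filament that astrocytes and injured Müller cells produce, was at 628 to 1690 without and 1161 to 1592 with PLX (log2 difference 0.02, standard error 0.29), and *Serpina3n* had a log2 difference of -0.43 (standard error 0.29). *Mki67*, a gene of dividing cells, was at 60.9, 65.3, 20.9, 15.3 and 5.56 normalized counts without PLX and at 1.73, 0, 4.72, 1.82 and 0.74 with PLX. These values did not overlap, but the difference was not called (log2 difference -3.39, adjusted p = 0.283, 0.0341 without CreNeg mouse 13 and 0.043 in the 10 CrePos retinas alone), and neither was any other of the 10 cell cycle genes, whose median was -1.05, but -0.23 for those with a mean of 10 or more. Lists of circadian clock, immediate early, lipid, thyroid hormone, lens, muscle, myelin and lymphocyte genes held 0 called genes, with medians between -0.52 and 0.09. None of the 5 sex-linked genes was called.

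Genes of red blood cells and of the retinal pigment epithelium had the highest list medians, 1.5 and 0.29, although the latter was -0.17 without mice 6 and 17. *Rpe65*, the isomerase of the visual cycle, was at 616, 578, 616, 547 and 444 normalized counts without PLX and at 978, 989.9, 1168, 804 and 674 with PLX. *Rgr* and *Lrat*, further visual cycle genes, were at 1503 to 2615 and 149 to 295 without PLX and at 2702 to 3588 and 338 to 407 with PLX. All 5 mice with PLX exceeded all 5 without for these 3 of 11 genes, but none was called (log2 differences 0.70, 0.62 and 0.74, adjusted p = 1). Values without overlap in this direction were also found for 3 of 14 immediate early genes and for 75 (0.323%) of all tested genes. The globin gene *Hba-a1* was at 6.04 to 85.6 without and 33.3 to 225 with PLX, and 0 of the 5 erythroid genes were called. How much pigment epithelium or blood was taken with a retina was not measured otherwise.

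The only gene called higher with PLX was *Dgat2*, which encodes the enzyme of the last step of triglyceride synthesis. It was at 174, 346, 291, 241 and 313 normalized counts without PLX and at 502, 433, 425, 617 and 681 with PLX. The groups did not overlap, and the mean with PLX was 195% of that without (log2 difference 0.97, 95% interval 0.58 to 1.364, adjusted p = 0.0108). The call was lost without mouse 20 (adjusted p = 0.0534) and in the 10 CrePos retinas alone (0.0518). *Dio2*, the deiodinase that forms active thyroid hormone, had the same size of difference with more spread. Its values were 694, 519, 646, 493 and 610 without and 1136, 1487, 1562, 904 and 807 with PLX, again without overlap, and it was not called (log2 difference 0.96, standard error 0.25, adjusted p = 0.168, 0.0395 without CreNeg mouse 11 and 0.0335 in the 10 CrePos retinas alone; exact permutation test, p = 0.00794).

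The 119 lowered genes together held 0.0282 to 0.0629% of the normalized counts of a library without PLX and 0.00526 to 0.0075% with PLX. As a percentage of the mean without PLX, the median over the 119 genes was 0, 5.56, 1.67, 0 and 0.56 in mice 16 to 20, and 158, 103, 86.9, 71.9 and 58.5 in mice 6 to 10. Mouse 17 was the highest of the mice with PLX, with 37 of the 119 genes at 0 against 55 to 67 in the other 4, and without PLX mouse 6 was the highest and mouse 10 the lowest. Because the genes were chosen for low values with PLX, the spread of the groups was not compared. Over the genes themselves, 69 were at under 5% of the mean without PLX, 40 at 5 to 20% and 10 above 20%. Genes with more than 20% left included *Zdhhc18* (53.7%), *Lyn* (29%), *AU020206* (26.7%), *Abhd15* (26.6%), *Slco2b1* (25.7%), *Unc93b1* (24.8%), *Cd68* (24.6%), *Arhgap45* (21.7%) and *Plau* (20.2%). Among these, *Plau*, *Abhd15*, *Lyn* and *Cd68* lost their calls in 20 of 31, 9 of 30, 8 of 31 and 4 of 31 alternatives, the removal of mouse 6 included. Their levels in retinal cells other than MP were not measured separately.

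**Figure D4:**
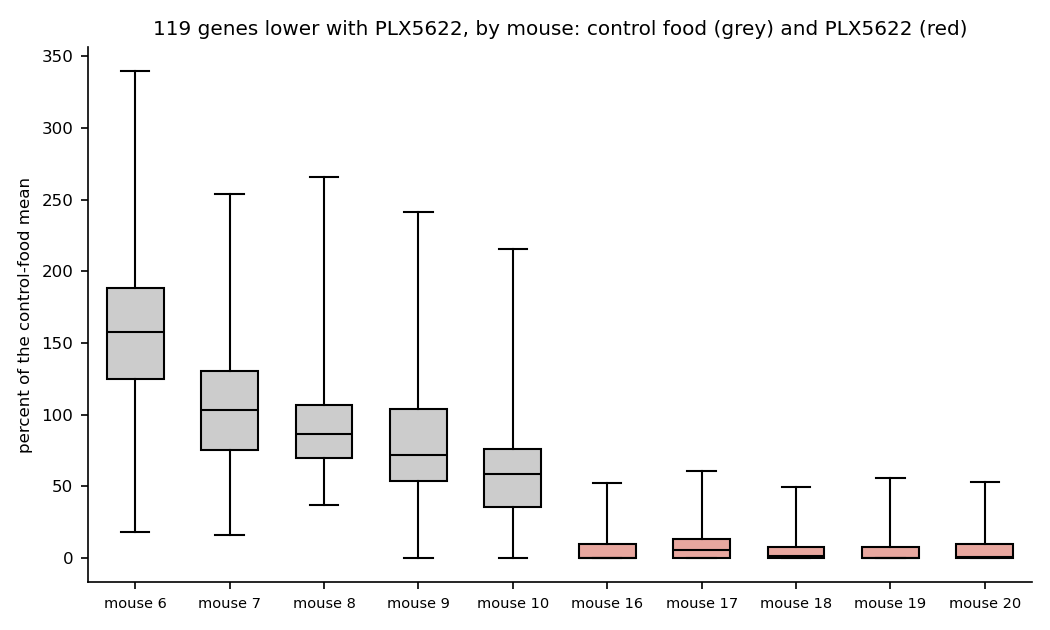
Level of the 119 lowered genes in each mouse as a percentage of the gene's mean in Tgfbr2ΔEC – PLX (y axis), with boxes from the lower to the upper quartile, a line at the median and whiskers from the lowest to the highest gene. Medians of mice 6 to 10 (grey) run from 158 down to 58.5%, and those of mice 16 to 20 (red) lie between 0 and 5.56%.

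The effect of PLX in CreNeg retina, from the same fit and other mice, allows the question of whether endothelial deletion of *Tgfbr2* changes the effect of depletion. In CreNeg retina, 169 genes (0.727%) were lower and 2 (0.0086%) higher with PLX. Of the 119 genes lowered in Tgfbr2ΔEC retina, 106 were lowered in CreNeg retina as well, which is 89.1% of the former and 62.7% of the latter. The estimates of 116 of the 119 were below 0 in CreNeg retina, and those of 168 of the 169 were below 0 in Tgfbr2ΔEC retina. Over the 119 genes the median log2 difference was -3.40 in Tgfbr2ΔEC and -3.75 in CreNeg retina. The difference between the effects passed the threshold for 0 of 23243 genes (0.0%; limma interaction, lowest adjusted p = 0.687), while 567 genes had an unadjusted p under 0.05. For *Tmem119* this difference was 0.14 on the log2 scale (95% interval -0.79 to 1.06), for *P2ry12* 0.27 (-0.57 to 1.102), for *C1qc* 0.09 (-1.18 to 1.37) and for *Csf1r* 0.60 (-0.45 to 1.66). Over the 119 genes the interval reached 1.56 to either side in the median. These intervals are for single genes and are not adjusted for the number of genes tested. After adjustment larger differences were not called either, such as the 3.76 of *Sp140* described below, so 1.56 is not a limit of detection.

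The numbers of called genes in a list were similar in both genotypes for the lists of microglia. In CreNeg retina 9 of 11 homeostatic, 15 of 20 phagocytic, 5 of 18 complement and 5 of 17 disease-associated genes were lower. More were called than in Tgfbr2ΔEC retina for the cytokine list (5 against 2 of 15), the CSF1 receptor and related receptors (3 against 1 of 10), MHC class II (3 against 1 of 9), perivascular macrophages (2 against 0 of 9), reactive gliosis (1 against 0 of 19) and lipid handling (1 against 0 of 12), but no member differed between genotypes in the interaction test. *Mrc1* was at 74.97, 19.6, 27.8, 25.2 and 36.9 normalized counts in CreNeg retinas without PLX and at 0 in all 5 with PLX. *Cd74* was at 505, 85.7, 124, 60.6 and 1029.9 without and at 0 to 4.21 with PLX in CreNeg retina.

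The 13 genes lowered in Tgfbr2ΔEC but not called in CreNeg retina included *Spi1* (log2 difference -3.35, adjusted p = 0.0591) and *Aif1*, the gene of the microglial stain IBA1 (-2.58, adjusted p = 0.171). *Zdhhc18*, a palmitoyltransferase gene with a broad expression, was chosen from them after its values had been seen. It was at 935, 1027, 1347, 987 and 1419.9 normalized counts in Tgfbr2ΔEC – PLX and at 599, 695, 532, 635 and 609 in Tgfbr2ΔEC + PLX. CreNeg retinas were at 596 to 730.3 without and 519 to 1022 with PLX, so only Tgfbr2ΔEC – PLX had a mean above 1000, and its difference between genotypes was -0.97 (95% interval -1.42 to -0.53, adjusted p = 0.848). *Impa2*, an inositol monophosphatase gene, was at 21.6, 153, 101, 94.5 and 221 without and at 10.1 to 32.4 with PLX in Tgfbr2ΔEC, a call lost in 10 of 31 alternatives (without mouse 7 or 10, for example), and at 11.98 to 43.4 and 13.02 to 23.1 in CreNeg retina. *Dgat2* had a log2 difference of 0.01 in CreNeg retina, where its means were 293 ± 58.3 (SD, n = 5) and 294 ± 50.8 (SD, n = 5), and a difference between genotypes of 0.96 (95% interval 0.41 to 1.51, adjusted p = 1). The lowest p of the interaction belonged to *Sp140*, a nuclear body gene of leukocytes, which was lower with PLX in CreNeg retina (log2 difference -3.55, adjusted p = 0.000381). In Tgfbr2ΔEC retina it was at 5.34, 7.31, 3.47, 22.89 and 5.35 normalized counts without and at 4.50, 10.43, 9.03, 8.10 and 12.13 with PLX (log2 difference 0.22). The difference between genotypes was 3.76 (95% interval 2.22 to 5.31, adjusted p = 0.687).

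**Figure D5:**
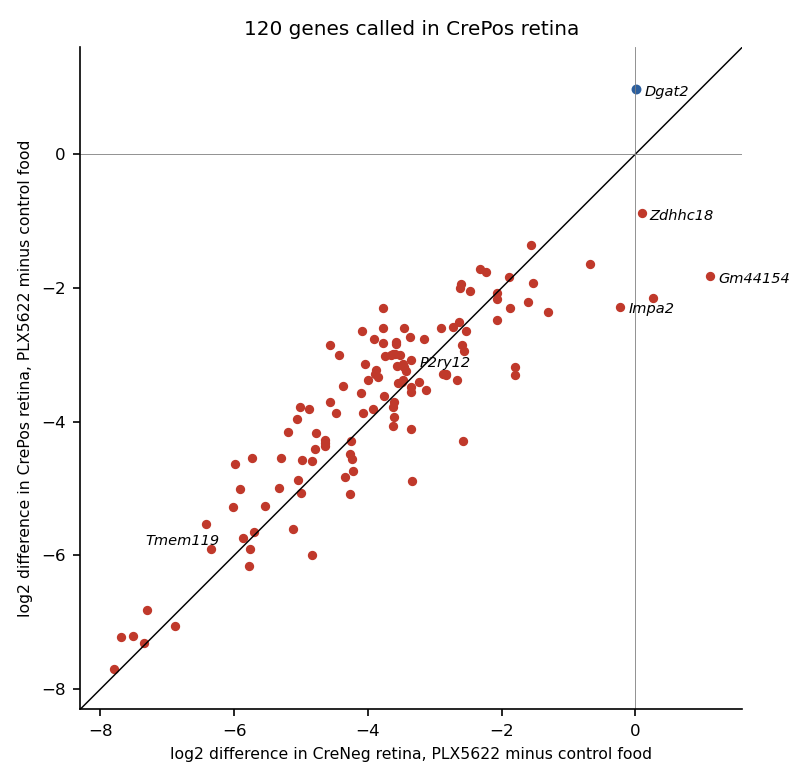
Log2 difference with PLX in Tgfbr2ΔEC (CrePos, y axis) against CreNeg retina (x axis) for the 120 genes called in Tgfbr2ΔEC retina, with the line of equal effects. The lowered genes (red) lie along the line, while *Zdhhc18*, *Impa2*, *Gm44154* and *Dgat2* (blue, the gene called higher) lie off it, and the difference between genotypes was not called for any gene.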

How the data were processed

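Polyadenylated RNA of 40 libraries (choroid and retina of 20 mice) was quantified by the authors with salmon 1.10.1 against GRCm39, imported with tximport and normalized with DESeq2 1.36.0, after a quality check with FastQC 0.11.5, per the study's methods and the submitters' processing notes. The retina and choroid sets were analysed separately by the authors after quantification. The deposited signal per gene, called normalized counts here, is normalized for library size. Sums per retina differed, and values were not whole. Only 50.0 to 75.0% of low values lay within 0.1 of a whole read, so counts were not recovered and no test on counts was run. Depth and the floor of 3 reads rest on the steps between low values and are approximate.

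Values of the 20 retinas (5 per group) were transformed to log2(normalized count + 1). The 23243 of 54307 genes whose mean reached 1 entered a single fit of limma 3.58.1 (R 4.3.3) in which the prior variance followed the mean. PLX against control food was tested in CrePos and in CreNeg retina, as was the difference of these effects, without covariates, with Benjamini-Hochberg adjustment and a threshold of 0.05. The authors' covariates, sex and an estimated neuronal percentage, are not in the labels and were not used. The pseudocount understates changes of low genes. Mice were taken as replicates as labelled. 6 genes were also compared by two-sided exact permutation tests over mice. The procedure was tested on simulated data.

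Symbols and positions come from GENCODE M39 (53700 genes matched, 607 not). Of 33 lists with 429 entries, 1 gene was not matched. Named were the 3 markers, the 20 genes of lowest p in each direction, up to 6 genes per list (called genes first, otherwise those of highest mean), *Tgfbr2*, *Csf1r*, *Il6*, *Fga* and *Dio2*; all others were chosen after their values were seen. The members and lists were chosen with earlier results of these data known. Alternatives were pseudocounts of 0.5 and 5, all genes above 0 or a mean of at least 10, median-ratio and upper-quartile scaling, a robust variance, the 10 CrePos retinas alone, a Y-linked or a rod score as covariate, and each mouse left out; leaving out mice 6 and 17 together was added after seeing the data. Choroid, staining and cell culture data were not analysed here, and some genes are not reported here. Tables were handled in pandas 2.3.3 and numpy 2.4.6 under Python 3.11.15, exact tests and intervals in scipy 1.17.1, and figures in matplotlib 3.10.9.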

Additional observations from a re-analysis of the deposited data

Results flagged for a closer look

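In each group of 5 Tgfbr2ΔEC mice, a highest or lowest value was marked where its gap to the nearest mouse exceeded 0.71 of the range of the group. This applied to 38 of the 220 combinations of a named gene and a group; chance marks about 1 in 20, and many of the values with PLX are close to the floor, where a single read sets the range. No explanation was weighed.

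Without PLX, mouse 6 was far above the other mice for *Spi1* (102.1 normalized counts), *Ccl6* (122.1), *Cd74* (696.9), *H2-Aa* (339.4), *C3ar1* (111.4) and *Ccr2* (186.5). Mouse 7 was far above for *Selplg* (444) and *Slco2b1* (376.7), and mouse 9 for *Cd86* (31.83) and *Sp140* (22.89).

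With PLX, mouse 17 was marked for 17 genes. Its values were 35.44 for *Cd74*, 45.56 for *Laptm5*, 18.53 for *Mpeg1*, 14.3 for *Ccr2*, 343.2 for *Stab1* and 2016 for *Serpina3n*. Lower values of the same mouse were marked for *Spi1* (6.3), *C1qa* (7.585), *Cd33* (5.181), *Trem2* (5.177), *Cx3cr1* (4.192), *Fcgr4* (4.361), *Fcgr3* (3.217), *Tyrobp* (2.596), *Ikzf1* (2.136), *Ly86* (1.095) and *P2ry13* (1.062). Mouse 18 was marked for *Olfml3* (93.61), *C3ar1* (2.383), *Il1a* (2.155) and *Tmem119* (1.019), and mouse 19 for *Ncf4* (16.78) and *C1qc* (2.045). Mouse 16 was marked for *Cd86* (1.714) and *Itgax* (0.7501) and as the lowest for *Ptgs2* (3.663), and mouse 20 for *Ptgs1* (4.859) and as the lowest for *Kdr* (2513).

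*Gm44154* was below the mean without PLX in all 5 Tgfbr2ΔEC mice with PLX and above it in all 5 CreNeg mice with PLX. This opposite direction was not tested as such; the log2 difference between the effects was -2.94 (limma interaction, adjusted p = 0.687).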

How the results depend on the processing

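The 119 genes lower in Tgfbr2ΔEC + PLX were 81 to 121 under the 11 alternatives other than leaving out 1 mouse and 94 to 126 when 1 of the 20 mice was left out. No called gene changed sign under any of these 31 settings. The single higher gene became 2 with a pseudocount of 0.5, 3 in the fit of the 10 CrePos retinas alone, 2 with the Y-linked score as covariate, and 1 to 3 when 1 mouse was left out: 3 without CreNeg mouse 1 or CrePos mouse 19, and 2 without CreNeg mouse 4 or 11 or CrePos mouse 6 or 20. *Dgat2* itself was not called in the 10 CrePos retinas alone (adjusted p = 0.0518). The count of genes whose effect differed between genotypes was 0 under each of the 30 alternatives that hold both genotypes.

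List medians moved by more than the spread between mice in a few cases. The homeostatic microglia median was -5.53 with a pseudocount of 0.5, -3.05 with one of 5 and -4.63 without mice 6 and 17. The phagocytic and cytokine medians were -1.96 and -0.63 with a pseudocount of 5, and when only genes averaging 10 or more were tested the cytokine, myelin and cell cycle medians were -0.36, -0.011 and -0.23. The myelin median was -0.011 also with all genes above 0 and lay between -0.37 and -0.064 when 1 mouse was left out, and the pigment epithelium median was -0.17 without mice 6 and 17. Scaling by median ratio or upper quartile moved no list median beyond the spread between mice.

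No paired analysis was possible because the groups compared share no mouse number. With 5 mice a group the depth limits genes near the floor of 3 reads, where a value with PLX cannot be told from 0, and pseudocounts then set the size of the log2 difference. Leaving a mouse out of a group left 4 mice in it.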
